A study of Mus musculus with 18 samples.

Results

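The shortest contacts that a 5C design can read at the mouse HoxD locus are those between restriction fragments whose midpoints lie less than 10 kb apart. In 5C, cross-linked DNA is digested with EcoRI and its ends are joined, and a junction is counted when a forward primer on one fragment meets a reverse primer on another. A pair was therefore a member if its fragments carried opposite primer classes, found from which fragments ever shared reads, and if their midpoints were under 10 kb apart on chromosome 2 of mm9. These criteria gave 171 of the 4422 forward-reverse pairs (3.87%) in the design used for embryonic stem (ES) cells and 232 of 10300 pairs (2.25%) in the larger design used for limb cells. Apart from which fragments ever shared reads, no measured frequency entered the choice of members.

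The study asked whether 5C and fluorescence in situ hybridization give the same view of HoxD folding, across activity states and losses of Polycomb proteins. Only its 5C data, 18 libraries, are used here. In ES cells these were OS25 cells differentiated for 3 days, of which 2 days with retinoic acid (D3, 2 libraries), undifferentiated OS25 cells (UD, 2), Eed-/- cells (2), Ring1B-/- cells with wild-type Ring1B added back (2) or with its I53A form, made to lack the ubiquitin ligase activity (1), Ring1B-/- cells (3) and wild-type WTF18 cells (2). In the limb these were P2 (2) and A2 (2), immortalised mesenchymal lines from the posterior and the anterior distal forelimb of Immortomouse embryos at E10.5. UD libraries were grouped by their titles, since their other labels also carry the differentiation text, and the 2 Eed-/- libraries were not assigned to clones. By the paper's methods, the WT, Eed-/- and Ring1B-/- ES cells were grown on embryonic fibroblast feeders, which were removed by letting them reattach. Those methods name no feeders for OS25 cells or for cells with Ring1B added back. The limb cells were kept at the permissive temperature of the immortalising transgene with gamma-interferon. The replicates of a group are separate libraries, so p-values measure the spread between libraries.

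HoxD is a gene cluster of homeobox transcription factors that act along the trunk and in the limb bud, with Hoxd13 at its 5′ end and Hoxd1 at its 3′ end. In ES cells the cluster is silent and carries the mark of Polycomb repressive complex 2, of which Eed is a core subunit, and it is bound by complex 1, of which Ring1B is the histone H2A ubiquitin ligase and which is known to compact chromatin. In 3C-type assays ligation frequency falls steeply with genomic distance, so the shortest pairs describe the chromatin fibre around a fragment rather than loops.

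The fragment ends of the members that stood highest are given here because each value below is the number of times a pair of such ends was found joined. Each line holds the last 30 bases of a fragment and the rest of the EcoRI site that ends it, read from NCBIM37 (mm9) on the plus strand, with the EcoRI site in capitals. For the fragments that the second limb matrices name by 30 bases, those bases are this same end of the fragment. The first pair overlaps an exon of Mtx2, the gene of a mitochondrial import protein (mHoxD_133 at chr2:74715152-74716809 and mHoxD_134 at chr2:74716810-74717578).
mHoxD_133: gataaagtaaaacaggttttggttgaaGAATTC
mHoxD_134: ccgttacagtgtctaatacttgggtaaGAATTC
The second pair is the highest inside the cluster in ES cells and overlaps an exon of Hoxd13 (chr2:74498789-74505529 and chr2:74505530-74511688).
mHoxD_69: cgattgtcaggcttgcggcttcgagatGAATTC
mHoxD_70: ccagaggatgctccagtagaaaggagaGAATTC
The third is the highest in limb cells and lies in the 3′ flank (chr2:74809246-74817544 and chr2:74817545-74818803).
mHoxD_155: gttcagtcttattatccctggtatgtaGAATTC
mHoxD_156: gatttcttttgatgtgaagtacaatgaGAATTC
The fourth is the highest inside the cluster in limb cells and overlaps exons of Hoxd8 and Hoxd3 (chr2:74544639-74548285 and chr2:74548286-74552569).
mHoxD_81: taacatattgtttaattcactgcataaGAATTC
mHoxD_82: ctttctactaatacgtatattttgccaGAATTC
The last is the only member that passed the test of single pairs between groups (chr2:74756399-74759068 and chr2:74759069-74759941, in the 3′ flank, with no gene of the locus list on either fragment).
mHoxD_141: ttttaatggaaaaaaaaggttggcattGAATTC
mHoxD_142: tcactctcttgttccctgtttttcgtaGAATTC

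The ES design held 133 fragments from 74241352 to 74907778, and the limb design 203 fragments from 73751054 to 74907778. Frequencies are reads per 1000 reads of the sequence run. Run totals were 216419 to 1708047 reads in ES libraries and 478818 to 2096681 in limb libraries, so that 3 reads correspond to 0.00143 to 0.0139 per 1000, counting error only. The median member held 328 to 2764 reads in an ES library, and 26 of the 171 ES members had no read in at least 1 library. No library was a copy of another. A pair of far contacts in the ES design stood above every member on average, mHoxD_85 with mHoxD_163 at 287 kb (35.7 per 1000, 10.8 to 77.0 over libraries) and mHoxD_22 with mHoxD_82 at 230 kb (11.4 per 1000), and they lower the share of short contacts in every ES library.

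Pairs under 10 kb held far more of the reads than of the pairs. They took 26.5 to 50.6% of forward-reverse reads in ES libraries, and 77 of the 100 highest of all ES pairs were members. In limb libraries they took 14.2 to 28.8%, and 91 of the 100 highest pairs were members. The 2 designs differ in their fragments, so the levels of ES and limb libraries are given apart.

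**Figure D1:**
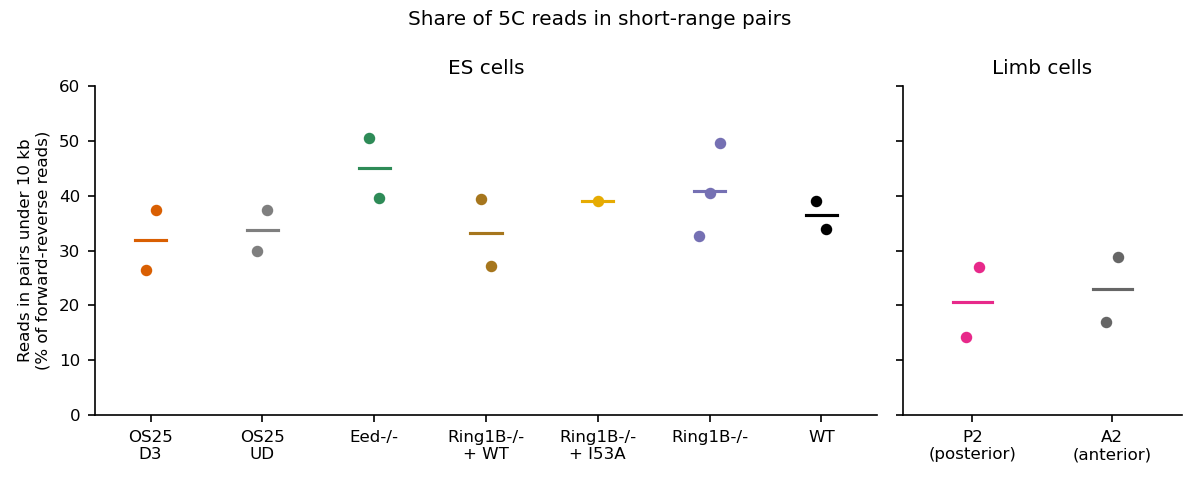
Percent of forward-reverse reads in pairs under 10 kb (y axis) for each library (points) by group, with the group mean as a bar, for 14 ES libraries at the left and 4 limb libraries at the right. Libraries of 1 group lie far apart, from 32.6 to 49.6% in Ring1B-/- cells, and the highest 2 are an Eed-/- and a Ring1B-/- library.

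No comparison of this share passed the test. D3 libraries had 26.5 and 37.4% and UD libraries 30.0 and 37.4%. Eed-/- libraries had 50.6 and 39.6%, both above the WT libraries at 39.0 and 33.9%. Ring1B-/- libraries had 32.6, 40.5 and 49.6%, which enclose the WT values. Ring1B-/- cells with wild-type Ring1B had 39.3 and 27.1% and the I53A library 39.0%, within or near the range of Ring1B-/- libraries. On the log2 scale Eed-/- minus WT was 0.30 ± 0.29 (SE; adjusted p = 0.627, limma; fold 1.23, 95% interval 0.817 to 1.85). Ring1B-/- minus WT was 0.15 ± 0.27 (adjusted p = 0.798), and D3 minus UD was -0.09 ± 0.29 (adjusted p = 0.883). Exact permutation tests could not go below p = 0.333 with 2 libraries against 2, 0.1 with 3 against 2 or 0.25 with 1 against 3, and none of these comparisons can pass by them.

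Members differed from each other by more than any group did. Their mean frequencies in ES cells ran from 0.0315 to 8.82 per 1000 around a median of 1.62, and in limb cells from 0.0272 to 3.33 around 0.742. The order of the members was largely shared. Spearman's rho of members between ES libraries was 0.80 to 0.90 within a group and 0.74 to 0.93 between groups, and between the ES and limb means of the 164 pairs present in both designs it was 0.88. Members share fragments (131 fragments make the 171 ES pairs) and each library shares 1 scaling, so these correlations are descriptions over pairs.

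Members also differed by whether their fragments abut, which went with distance. Of the ES members, 96 join neighbouring fragments that meet at 1 EcoRI site and 75 join fragments with at least 1 other between them. Neighbouring pairs had a median of 2.97 per 1000 and separated pairs 0.583 per 1000. Their median distances were 3.32 and 7.32 kb. In each ES library the mean of neighbouring pairs was 3.08 to 4.98 times that of separated pairs, and at 4 to 10 kb alone, where both kinds occur, 3.24 to 5.50 times. Distance was not matched within that range. In the ES flanks 20 neighbouring pairs were at 4 to 7 kb and 8 at 7 to 10 kb, against 24 and 32 separated pairs. Limb libraries showed ratios of 2.30 to 3.32 and, at 4 to 10 kb, 2.34 to 3.67. Neighbouring pairs thus held 79.8 to 86.4% of short-range reads in ES libraries and 74.3 to 80.6% in limb libraries, and 19 of the 20 highest members of either design were neighbours. Frequency and distance had a rho of -0.59 over all 171 ES members, -0.19 over the 96 neighbouring and -0.47 over the 75 separated ones. Fragment length went with frequency in separated pairs (rho 0.48 with the longer fragment in ES cells, 0.46 in limb cells), while the GC content of the ends hardly did (0.16 and 0.06). Pairs with the forward fragment first and those with the reverse fragment first were alike, with a ratio of 0.948 to 1.25 over ES libraries.

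**Figure D2:**
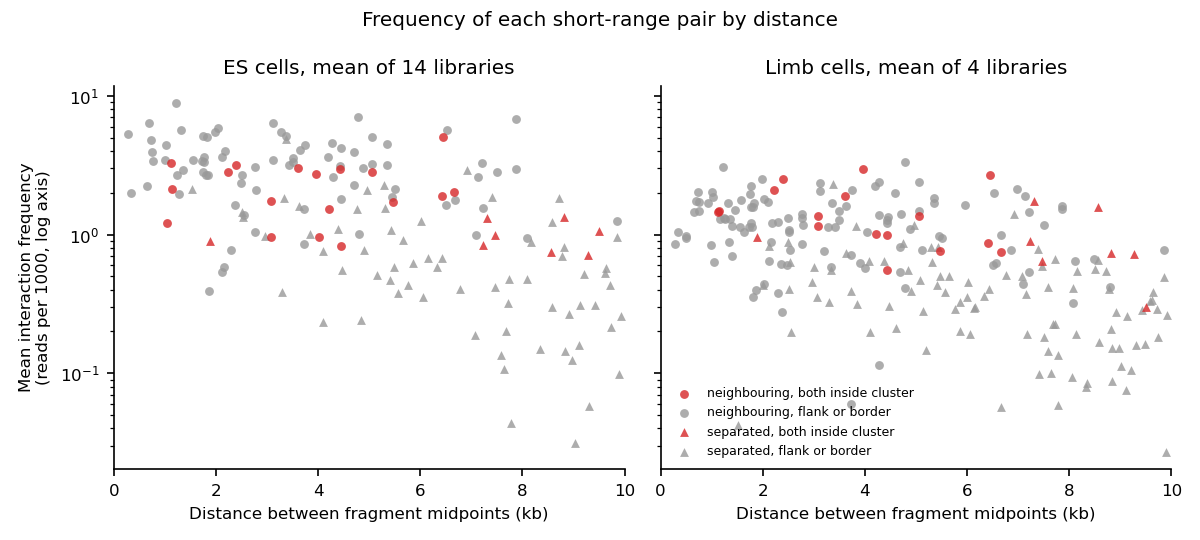
Mean frequency of each member (y axis, reads per 1000, log axis) against the distance between fragment midpoints (x axis, kb) in 14 ES libraries (left, 171 pairs) and 4 limb libraries (right, 232 pairs), with circles for neighbouring and triangles for separated fragments and red for pairs inside the cluster. Neighbouring pairs lie on average above separated ones in both designs, with overlap between the kinds, and red triangles sit in the upper part of the separated pairs.

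At the 10-kb limit the 16 ES pairs at 9 to 10 kb had a median of 0.370 per 1000 (0.0315 to 1.26) and the 17 pairs at 10 to 11 kb one of 0.520 (0.159 to 2.48). In limb cells 18 pairs just inside had a median of 0.274 and 20 pairs just outside one of 0.375. The limit thus cut through pairs of similar frequency.

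The single highest member in ES cells was the Mtx2 pair mHoxD_133 with mHoxD_134 (1.21 kb apart, mean 8.82 per 1000, 5.23 to 13.3 over 14 libraries). In limb cells it was the second highest (mean 3.05). The 3′ flank pair mHoxD_155 with mHoxD_156, 4.78 kb apart, was second in ES cells (mean 7.08, 4.52 to 11.5) and first in limb cells (3.33, 2.04 to 4.92). Next in ES cells came mHoxD_67 with mHoxD_68, which spans the 5′ border of the cluster and overlaps an exon of Evx2, the homeobox gene beside Hoxd13 (mean 6.76). This Evx2 pair was highest in the I53A library (12.4 per 1000) and lowest in an Eed-/- library (2.97). It was followed by mHoxD_29 with mHoxD_30 in the 5′ flank (mean 6.40) and mHoxD_132 with mHoxD_133 at Mtx2 (mean 6.33). Both Mtx2 pairs contain mHoxD_133.

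Inside the cluster the highest ES pair was the Hoxd13 pair mHoxD_69 with mHoxD_70 (6.45 kb apart, mean 5.09 per 1000, rank 14 of 171). It had 4.57 and 6.78 in D3 libraries and 4.74 and 8.32 in UD libraries. Eed-/- libraries had 3.66 and 3.99 and Ring1B-/- libraries 4.58, 2.61 and 2.21, whereas WT libraries had 4.51 and 5.91. Ring1B-/- cells with wild-type Ring1B stood at 5.48 and 6.96 and the I53A library at 6.95, above all Ring1B-/- libraries. None of these differences passed the test of single pairs. The pair mHoxD_83 with mHoxD_84 in an intron of Hoxd3 had a mean of 3.30 and mHoxD_78 with mHoxD_79 at Hoxd9 one of 3.19. In limb cells 3 of the 5 highest members lay inside the cluster, namely the Hoxd8 and Hoxd3 pair mHoxD_81 with mHoxD_82 (2.98), the Hoxd13 pair (2.71) and the Hoxd9 pair (2.50). The Hoxd9 pair had 2.43 and 4.16 in P2 libraries and 1.65 and 1.77 in A2 libraries, without overlap and without passing the test of single pairs.

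Local contact inside the cluster was set against both flanks. The cluster window, chr2:74498312-74604594, held 26 ES members, the 5′ flank 44 and the 3′ flank 97, and 4 crossed a border. In the limb design these were 24, 112, 93 and 3. The mean frequency inside the cluster was 1.36 and 1.86 in D3 and 1.59 and 2.20 in UD libraries. It was 1.78 and 1.67 in Eed-/- libraries, 2.14, 1.72 and 1.94 in Ring1B-/- libraries and 2.03 and 2.12 in WT libraries, and it was 2.03 and 1.70 with wild-type Ring1B and 2.15 with I53A. These means lay close together, since no ES group differed from the one it was compared with by more than 0.26 on the log2 scale and none passed the test.

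**Figure D3:**
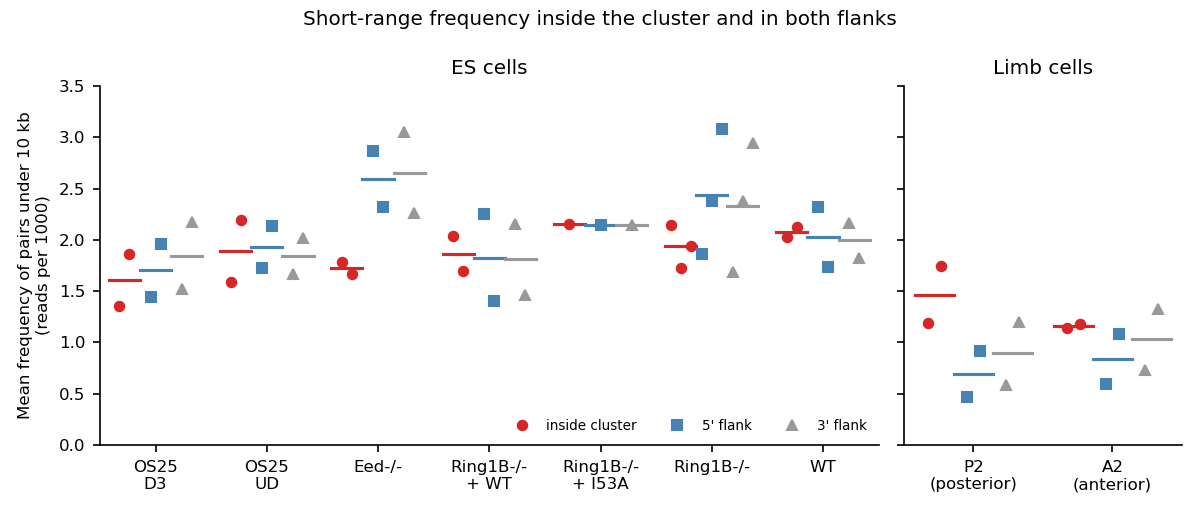
Mean frequency of members (y axis, reads per 1000) inside the cluster (red circles), in the 5′ flank (blue squares) and in the 3′ flank (grey triangles) for each library by group, with group means as bars, ES cells at the left and limb cells at the right. Both flanks lie above the cluster in Eed-/- libraries and below it in P2 libraries.

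The flanks varied more. Eed-/- libraries had 2.87 and 2.32 in the 5′ flank and 3.05 and 2.26 in the 3′ flank, against 2.33 and 1.74 and 2.16 and 1.82 in WT libraries. Eed-/- minus WT was 0.36 ± 0.29 in the 5′ flank and 0.40 ± 0.29 in the 3′ flank, on the log2 scale, and neither passed (adjusted p = 0.552 for both). Ring1B-/- libraries had 1.86, 2.38 and 3.08 in the 5′ flank and 1.68, 2.38 and 2.94 in the 3′ flank, a spread that covers both WT values in the 3′ flank and the higher WT value in the 5′ flank. With wild-type Ring1B the flanks had 2.25 and 1.41 (5′) and 2.16 and 1.46 (3′), a difference of -0.42 ± 0.27 and -0.35 ± 0.27 against Ring1B-/- (adjusted p = 0.520 and 0.552). D3 differed from UD by -0.18 and -0.01.

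Local enrichment is the log2 ratio of the cluster to both flanks, averaged over the distance classes under 4 kb, 4 to 7 kb and 7 to 10 kb so that both sides are compared at like distances. It was 0.02 and -0.28 in D3 and 0.14 and 0.29 in UD libraries, -0.62 and -0.40 in Eed-/- and 0.15 and 0.44 in WT libraries. Ring1B-/- libraries gave 0.48, -0.25 and -0.51, those with wild-type Ring1B 0.10 and 0.37 and the I53A library 0.13. Thus 9 of 14 ES libraries lay above 0 and no ES group differed from 0 (smallest adjusted p = 0.125, Eed-/-, and 0.0442 without the first Ring1B-/- library). Eed-/- minus WT was -0.81 ± 0.29, with no overlap between libraries, and missed the threshold (adjusted p = 0.0651; 1.75-fold lower, 95% interval 1.16 to 2.63). It passed with a limit of 8 kb (-0.98, adjusted p = 0.0215) or 12 kb (-0.91, adjusted p = 0.0265) and without the first Ring1B-/- library (adjusted p = 0.0154), and turned to 0.47 once each frequency was divided by primer factors from contacts at least 120 kb apart. With these factors the enrichment itself was negative in all libraries, -3.79 to -2.25 in ES cells and -2.09 to -0.79 in limb cells. The direction of cluster against flank thus depends on whether the factors are applied. They were fitted without a term for distance and with both far pairs named above kept in. Whether they hold more than the efficiency of primers was not tested. The factors let the 5 highest flank members hold 20.4 to 40.3% of the flank sum in ES libraries, against 11.3 to 14.4% as deposited.

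The kind of pair also set the direction in ES cells. Over neighbouring pairs alone the cluster lay below its flanks in 14 of 14 ES libraries (-1.15 to -0.07), and over separated pairs alone above them in 14 of 14 (0.22 to 1.83), while primer factors turned the separated pairs too, to group means of -3.18 to -1.18. The medians of the members show the same split, with 2.07 per 1000 for the 18 neighbouring pairs inside the cluster and 3.15 for the 77 in the flanks, but 0.946 for the 8 separated pairs inside it and 0.523 for the 64 in the flanks. Kind and distance cannot be told apart here, because every neighbouring pair inside the cluster is under 7 kb and 7 of its 8 separated pairs are at 7 to 10 kb. By distance alone the cluster was above the flanks in 1 of 14 ES libraries under 4 kb, in 10 of 14 at 4 to 7 kb and at 7 to 10 kb, and in 14 of 14 in each class from 10 to 20 kb up to 80 to 110 kb, where the log2 ratio reached 4.11.

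**Figure D4:**
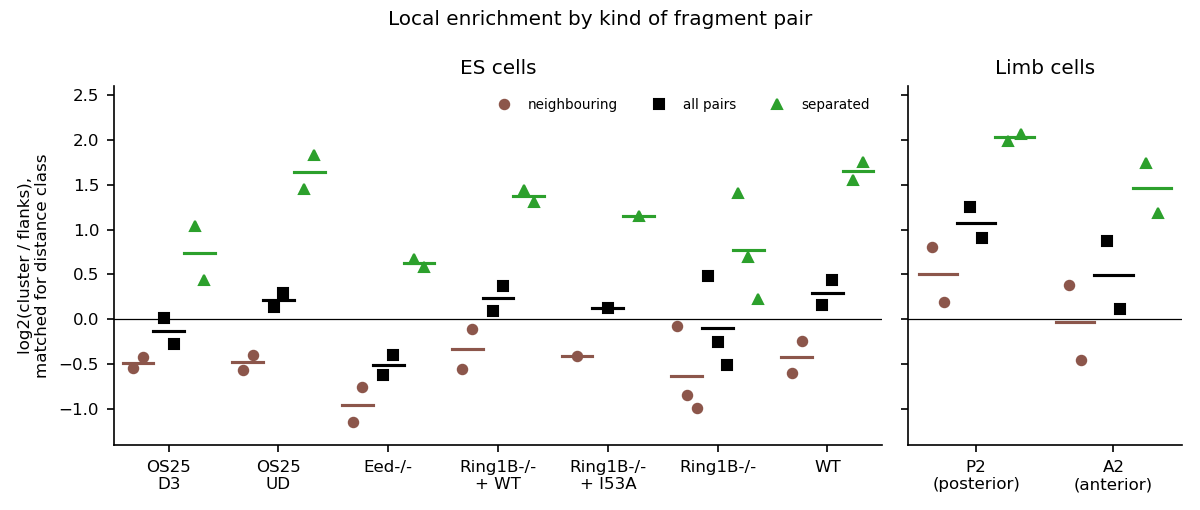
Local enrichment (y axis, log2 of cluster over flanks, matched for distance class) of each library by group over neighbouring pairs (brown circles), all pairs (black squares) and separated pairs (green triangles), with group means as bars and a line at 0, from frequencies as deposited. Separated pairs lie above 0 in all 18 libraries and neighbouring pairs below 0 in all 14 ES libraries, while primer factors turned the value over all pairs negative in each library.

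The groups of ES cells parted in the separated pairs at 7 to 10 kb, though not only there. Inside the cluster they are 7 pairs of 13 fragments over Hoxd13, Hoxd12, Hoxd11, Hoxd9, Hoxd8, Hoxd4 and Hoxd3, set against 32 flank pairs. The 7 pairs averaged 0.822 and 0.617 per 1000 in D3 libraries and 1.10 and 1.46 in UD libraries. Eed-/- libraries had 0.696 and 0.782, against 1.34 and 1.20 in WT libraries. Ring1B-/- libraries had 1.16, 1.04 and 0.696, all below both WT libraries. So were those with wild-type Ring1B at 1.13 and 0.954, the I53A library at 1.06 and the UD library at 1.10. The flank pairs ran from 0.357 to 0.641 over all ES libraries. Over all pairs at 7 to 10 kb, with the same 7 cluster pairs, the log2 ratio of cluster to flanks parted groups too. It averaged 0.92 in WT, -0.40 in Eed-/-, 0.28 in Ring1B-/-, 0.82 in UD and -0.15 in D3 libraries. At 10 to 20 kb these means were 2.43, 0.41, 1.36, 2.02 and 1.30.

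The enrichment of separated pairs was 1.04 and 0.44 in D3 libraries and 1.45 and 1.83 in UD libraries, a difference of -0.90 (adjusted p = 0.0202, limma). It was 0.67 and 0.59 in Eed-/- libraries and 1.56 and 1.75 in WT libraries, a difference of -1.03 (adjusted p = 0.0148). Ring1B-/- libraries had 1.40, 0.70 and 0.22, and differed from WT by -0.88 (adjusted p = 0.0180). The values were thus lower than in the compared group in the cells that were differentiated or lacked a Polycomb protein. Libraries did not overlap in any of the 3 comparisons. Libraries with wild-type Ring1B gave 1.44 and 1.30 and the I53A library 1.15, all below both WT libraries too. The difference of wild-type Ring1B from Ring1B-/- did not pass (0.60, adjusted p = 0.0967, limma). The frequency of separated pairs inside the cluster itself fell by 0.82 in D3 (adjusted p = 0.0356) and by 0.76 in Eed-/- (adjusted p = 0.0447). These calls come from a setting that leaves out neighbouring pairs, not from the main fit. They were adjusted within that setting alone and were not stable. Over all pairs, neighbours included, none of the differences passed, and with primer factors the enrichment of separated pairs differed by -1.83 (D3), 0.16 (Eed-/-) and -0.05 (Ring1B-/-), none of which passed (adjusted p = 0.389, 0.912 and 0.946). The D3 call was lost without the second D3 (-0.60) or the second UD library (-0.71), and the Eed-/- call without either Eed-/- library (-1.07 and -0.98) or the second WT library (-0.93). The Ring1B-/- call was lost without the second (-0.84) or the third (-0.61) Ring1B-/- library and without the second WT library (-0.78). Since all groups share 1 spread, the D3 call was also lost, at the same difference, without the second WT (adjusted p = 0.0616), the first Eed-/- (0.0572) or the second Ring1B-/- library (0.0549), and the Ring1B-/- call without the first Eed-/- library (0.0572).

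Within these 7 pairs, mHoxD_71 with mHoxD_75 joins Hoxd12 and Hoxd11 over 7.46 kb and was singled out after its values had been seen. It had 0.738 and 0 per 1000 in Eed-/- libraries, 1.42, 0.222 and 0.136 in Ring1B-/- libraries and 2.13 and 2.03 in WT libraries. D3 libraries had 0.610 and 0.392 and UD libraries 0.977 and 1.16. Wild-type Ring1B gave 1.33 and 0.990 and I53A 1.86. The libraries without Eed or Ring1B were lower than WT throughout, and so were those of every other ES group. As a single pair it did not pass (adjusted p = 0.151 for Eed-/- minus WT, limma).

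Gene by gene, local contact was compared with the mean of flank members, from frequencies as deposited. That mean was not matched for distance or for neighbouring and separated pairs, so the ratios also carry which pairs a gene holds. Pairs over Lnp and Mtx2 are themselves part of it. Hoxd4 lies inside Hoxd3, so pairs over Hoxd4 are counted for both genes. Over Mtx2 (17 pairs) it was above the flank mean in 14 of 14 ES libraries, with a median ratio of 1.23, and over Evx2 (2 pairs) in 13 of 14 (1.76). Hoxd13, the gene of the most posterior class (3 pairs), was above it in 9 of 14 (1.37), and Hoxd1 (4 pairs) and Hoxd9 (2 pairs) in 7 of 14 each (1.00 and 0.94). Hoxd3 with 13 pairs was above it in 4 libraries and Hoxd4 with 7 pairs in 2. Hoxd12 (6 pairs), Hoxd11 (2), Hoxd8 (6) and Lnp, the gene beyond Evx2 in the 5′ flank (13), were below it in 14 of 14, with median ratios of 0.60, 0.45, 0.65 and 0.47. No member lies over Hoxd10, and Atf2 and Atp5g3 lie beyond both designs. The 2 pairs over Hoxd11 averaged 0.516 and 0.513 per 1000 in D3 and 0.894 and 0.814 in UD libraries. They averaged 0.852 and 0.373 in Eed-/- libraries, 1.01, 0.532 and 0.389 in Ring1B-/- libraries and 1.67 and 1.76 in WT libraries. Hoxd9 pairs averaged 1.23 and 1.02 in D3 and 2.06 and 1.79 in UD libraries. They averaged 1.09 and 1.19 in Eed-/- libraries and 2.85, 2.95 and 2.56 in Ring1B-/- libraries, against 2.23 and 2.85 in WT libraries, and 2.29 and 1.19 with wild-type Ring1B. Over Hoxd11 all libraries of both mutants lay below WT, and so did the libraries of every other ES group. Those with wild-type Ring1B had 1.43 and 0.714 there and the I53A library 1.27. Over Hoxd9 the Eed-/-, D3 and UD libraries lay below WT, as did the second library with wild-type Ring1B and the I53A library (2.21). The Ring1B-/- libraries lay within or above the WT range. These are descriptions of few pairs that were not tested by gene.

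The ratio of short to long contacts inside the cluster (mean under 10 kb over mean of the 95 cluster pairs at 10 kb or more) was the readout that separated the groups most. It was 5.85 and 4.46 in Eed-/- libraries and 1.86 and 1.63 in WT libraries, a log2 difference of 1.55 ± 0.29 (adjusted p = 0.000118, limma; fold 2.93, 95% interval 1.95 to 4.41). The long contacts differed by more than the short ones. They averaged 0.305 and 0.374 per 1000 in Eed-/- libraries, against 1.09 and 1.30 in WT libraries, while short contacts differed by -0.26 on the log2 scale, as given above. This difference passed under all alternatives run (largest adjusted p = 0.0196).

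Ring1B-/- libraries had ratios of 2.28, 3.11 and 3.80, all above WT, and just missed the threshold (0.78 ± 0.27, adjusted p = 0.0545, and 0.0478 without the first library with wild-type Ring1B). Libraries with wild-type Ring1B had 1.68 and 1.29, below all Ring1B-/- libraries, and the difference of -1.03 ± 0.27 passed (adjusted p = 0.00611; 2.04-fold lower, 95% interval 1.40 to 2.96). That call was lost when medians over pairs replaced means (-0.45, adjusted p = 0.312), with primer factors, without the variance shared across readouts (adjusted p = 0.0599) and without the second library with wild-type Ring1B (adjusted p = 0.0788). The I53A library had 1.68, also below all Ring1B-/- libraries, without passing (-0.84 ± 0.34, adjusted p = 0.0871). The long contacts averaged 1.21 and 1.31 with wild-type Ring1B and 1.28 with I53A, against 0.939, 0.555 and 0.511 in Ring1B-/- libraries. D3 libraries had ratios of 2.55 and 3.10 and UD libraries 1.76 and 1.54, a difference of 0.77 ± 0.29 that did not pass (adjusted p = 0.0697). Without the first Ring1B-/- library this difference passed (adjusted p = 0.0184), as did Ring1B-/- minus WT (0.98, adjusted p = 0.00357) and I53A minus Ring1B-/- (-1.03, adjusted p = 0.0126). Of the 30 ES contrasts over 6 readouts 2 passed and 6 were under an unadjusted p of 0.05. The readouts overlap in the pairs they use, so the spread shared among them, at 42 degrees of freedom, rests on fewer independent values.

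**Figure D5:**
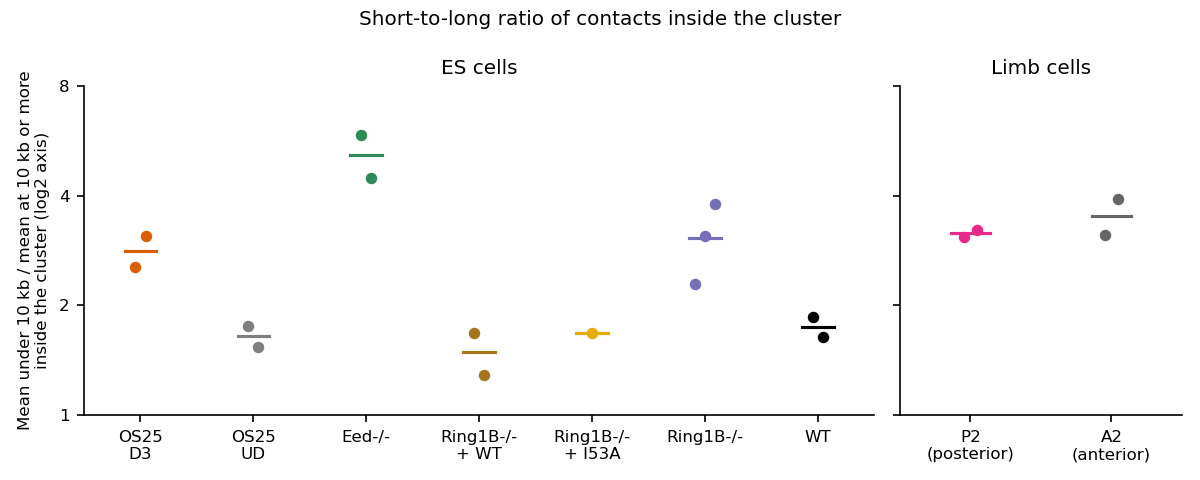
Mean frequency under 10 kb over mean frequency at 10 kb or more inside the cluster (y axis, log2 axis) of each library by group, with the group mean as a bar, ES cells at the left and limb cells at the right. Eed-/- libraries at 5.85 and 4.46 stand above all others, and WT, UD and both groups with Ring1B restored lie at 1.29 to 1.86.

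Single pairs gave few calls. Among the 171 members, all of which were above the minimum mean of 0.02 per 1000, none passed in D3 against UD (0% of 3655 tested pairs passed), Eed-/- against WT (0.0821%), Ring1B-/- against WT (0%) or I53A against Ring1B-/- (0%). At an unadjusted p of 0.05 the members counted were 1 for D3 (3.5% of all pairs), 16 for Eed-/- (12 higher; 9.6% of all pairs), 15 for Ring1B-/- (13 higher; 6.57%) and 5 for I53A (3.89%), shares of members of 0.585, 9.36, 8.77 and 2.92%. The median log2 difference of members was 0.24 in Eed-/- and 0.27 in Ring1B-/- cells, against 0 and 0.44 over all tested pairs. Without the second WT library these medians were 0.07 and 0.09. Without the first Ring1B-/- library the Ring1B-/- count was 23 members, beside 296 of 3615 tested pairs.

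With wild-type Ring1B against Ring1B-/- 1 member passed, the only pair of the 3655 to do so (0.0274%), and 21 members were under an unadjusted 0.05 (3 higher; 6.81% of all pairs). The pair is mHoxD_141 with mHoxD_142 in the 3′ flank, 1.77 kb apart. It had 0.619 and 0.615 per 1000 in both libraries with wild-type Ring1B and 4.63, 6.00 and 6.36 in Ring1B-/- libraries (log2 change -3.14 ± 0.52, adjusted p = 0.000377, limma; 8.84-fold lower). The I53A library had 4.20, WT libraries 3.81 and 3.46 and Eed-/- libraries 5.98 and 2.76, while D3 libraries had 1.31 and 2.83 and UD libraries 1.57 and 2.24. The libraries with wild-type Ring1B therefore stood below every other ES library at this pair. The call was lost without any of 4 libraries, namely the first (adjusted p = 0.130) or second (0.0898) with wild-type Ring1B and the second (0.0846) or the third (0.0573) Ring1B-/- library, and without a trend of variance with mean.

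In limb cells P2 and A2 were compared over 6 readouts and none passed (smallest adjusted p = 0.766). Short pairs took 14.2 and 27.0% of reads in P2 libraries and 17.0 and 28.8% in A2 libraries, so that the first and second library of each line differed more than the lines. The second matrices of both lines also name 71 fragments by 30 bases, and members of same-numbered libraries deviated together (r = 0.58 over 232 pairs), so differences are given within each number too. The share differed by -0.26 and -0.09 on the log2 scale in the first and the second libraries, and was lower in P2 in both.

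Inside the cluster P2 libraries had 1.19 and 1.74 per 1000 and A2 libraries 1.15 and 1.18, a within-number difference of 0.06 and 0.56. The 5′ flank had 0.465 and 0.916 in P2 and 0.592 and 1.09 in A2 libraries (-0.34 and -0.24), and the 3′ flank 0.586 and 1.20 in P2 and 0.733 and 1.33 in A2 libraries (-0.31 and -0.14). P2 was thus higher inside the cluster and lower in both flanks in each number. Local enrichment was 1.25 and 0.91 in P2 and 0.87 and 0.12 in A2 libraries (0.58 ± 0.49, adjusted p = 0.766; 0.37 and 0.79 within numbers). In P2 it differed from 0 (1.08, adjusted p = 0.0191) and in A2 it did not (0.50, adjusted p = 0.182), which does not show that the lines differ. With primer factors both turned negative (-1.44 in P2 and -1.56 in A2), and the P2 value no longer passed against the 3′ flank alone (0.86, adjusted p = 0.0578) or over neighbouring pairs only (0.50, adjusted p = 0.449). It was also lost without any of the 4 limb libraries, at 0.91 and 1.25 without a P2 library (adjusted p = 0.218 and 0.120) and at an adjusted p of 0.0509 without either A2 library.

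Separated pairs at 7 to 10 kb inside the cluster averaged 0.920 and 1.32 per 1000 in P2 libraries and 0.841 and 0.718 in A2 libraries, against 0.232 to 0.316 for 46 flank pairs. Their enrichment was 1.99 and 2.07 in P2 and 1.74 and 1.19 in A2 libraries. The short-to-long ratio was 3.08 and 3.22 in P2 and 3.13 and 3.91 in A2 libraries. Over Hoxd9 the 2 members averaged 1.94 and 3.64 in P2 and 1.26 and 1.35 in A2 libraries, and over Hoxd13 the 3 members averaged 1.60 and 1.78 in P2 and 1.33 and 1.44 in A2 libraries. Both genes were thus higher in each P2 library than in either A2 library. So was Hoxd8, at 1.47 and 2.26 in P2 and 1.34 and 1.31 in A2 libraries. Evx2 went the other way, at 0.809 and 0.807 in P2 and 1.09 and 0.978 in A2 libraries. Over the other genes with members the lines overlapped. Hoxd9 and Hoxd13 were above the flank mean in 4 of 4 limb libraries. Hoxd8, Hoxd3, Hoxd1 and Mtx2 were also above it in 4 of 4, Hoxd12 and Hoxd4 in 3, Evx2 in 2, Hoxd11 in 1 and Lnp in 0. Of the 232 members none passed between P2 and A2 (0% of 8389 tested pairs) and 0 were under an unadjusted p of 0.05 (3.16% of all pairs). With the library number as a term, 0 members and 1 of the 8389 pairs passed. In that fit 22 of the 232 members were under an unadjusted 0.05, of which 3 were higher in P2, and 456 of the 8389 pairs were.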

How the data were processed

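5C signal matrices, 1 per library, were used as deposited. The authors passed Ion Torrent reads through a 5C pipeline on Galaxy, divided each contact's reads by the reads of the run and multiplied by 1000. No source used here gives the aligner. Members and lists were chosen with earlier results of these data known. Groups follow the labels. Region values are means over members, zeros included. The local frequencies and the single pairs took a pseudocount of 0.02 before log2. The share, the enrichment and the short-to-long ratio took none. Groups were compared two-sided with limma 3.58.1 in R 4.3.3 over 6 readouts, with 14 ES or 4 limb libraries per fit and Benjamini-Hochberg adjustment over 30 or 6 contrasts, and tests against 0 were adjusted apart. Single pairs with a mean above 0.02 were tested with a variance trend and adjusted over all pairs of a contrast. Named pairs are the 5 highest members per design, the 3 highest inside the cluster and those called without overlap between groups. Primer factors came from contacts at least 120 kb apart. The script was tested on simulated data. Exact tests were run in R. Tables were made in Python 3.11.15 with pandas 2.3.3, numpy 2.4.6 and scipy 1.17.1. Exon overlaps came from the NCBIM37 annotation. Same-strand primer pairs and the control region were not used here.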

Additional observations from a re-analysis of the deposited data

How the results depend on the processing

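Neighbouring fragments only, a share without both far pairs that stand above all members, and the alternatives for the enrichment of separated pairs were chosen after the data had been seen. Of the settings that leave no library out, 471 values kept their direction and their side of the threshold, 47 turned, 25 came to pass, 10 ceased to pass and 3 counts of calls moved, and the cause was not tested. Values are log2.

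Limits of 8 and 12 kb made Eed-/- minus WT pass for local enrichment (-0.98 and -0.91), as did a fit of only those groups (-0.81). Against 0, 8 kb gave -0.86 in Eed-/- and -0.022 with I53A, 1 distance class gave -0.60 in Eed-/- and the 3′ flank alone 0.86 in P2. Without neighbouring fragments, D3 minus UD was -0.82 inside the cluster, 0.16 in the 3′ flank and -0.90 for enrichment. Eed-/- minus WT was then -0.76 inside the cluster and -1.03 for enrichment, Ring1B-/- minus WT -0.88 for enrichment, wild-type Ring1B minus Ring1B-/- 0.13 inside the cluster and I53A minus Ring1B-/- -0.88 for the short-to-long ratio. Enrichment against 0 was then 0.74 in D3, 1.64 in UD, 0.63 in Eed-/-, 0.77 in Ring1B-/-, 1.37 with wild-type Ring1B, 1.15 with I53A, 1.66 in WT and 1.46 in A2. With neighbouring fragments only it was -0.48 in UD, -0.95 in Eed-/-, -0.63 in Ring1B-/-, -0.33 with wild-type Ring1B, -0.41 with I53A, -0.42 in WT, 0.50 in P2 and -0.035 in A2. Medians over pairs gave 1.00 for D3 minus UD and -0.45 for wild-type Ring1B minus Ring1B-/- in the short-to-long ratio, and 0.012 for Ring1B-/- minus WT inside the cluster. Enrichment by medians was 0.38 in D3, 0.53 in UD, 0.19 in Ring1B-/-, 0.60 with wild-type Ring1B and 0.51 in WT.

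Primer factors turned the direction of many values. Enrichment was -3.27 in D3, -2.53 in UD, -2.72 in Eed-/-, -2.67 in Ring1B-/-, -2.71 with wild-type Ring1B, -2.63 with I53A, -3.19 in WT, -1.44 in P2 and -1.56 in A2. D3 minus UD was 0.016 inside the cluster and 0.87 in the 5′ flank. Eed-/- minus WT was 0.66 inside the cluster and 0.47 for enrichment. Ring1B-/- minus WT was 0.65 inside the cluster, -0.12 and -0.064 in the 5′ and 3′ flanks and 0.52 for enrichment. Against Ring1B-/-, wild-type Ring1B gave 0.40 in the 3′ flank, -0.041 for enrichment and -0.82 for the short-to-long ratio, and I53A -0.032 inside the cluster and 0.55 in the 3′ flank. P2 minus A2 was -0.12 inside the cluster. For separated pairs alone, the enrichment differed by -1.83 in D3, 0.16 in Eed-/- and -0.048 in Ring1B-/-, and against 0 it was -3.18 in D3, -1.35 in UD, -2.12 in Eed-/-, -2.33 in Ring1B-/-, -1.83 with wild-type Ring1B, -1.18 with I53A, -2.28 in WT, -0.81 in P2 and -0.92 in A2. The short-to-long ratio of wild-type Ring1B minus Ring1B-/- stayed at -1.03 but ceased to pass without empirical Bayes and in a fit of only those groups. Calls of single pairs with wild-type Ring1B were 2 with a pseudocount of 0.1 and 0 without a variance trend.

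Replicate numbers do not pair the libraries by label, and deviations of same-numbered ES libraries had correlations of -0.15 to 0.24 over 30 comparisons. With the number as a replicate block, wild-type Ring1B minus Ring1B-/- was -0.85 for the short-to-long ratio and no longer passed, and 0 single pairs were called. Ring1B-/- minus WT was then -0.0027 for the short share, and I53A minus Ring1B-/- 0.11 for the short share, 0.0011 in the 5′ flank and 0.11 in the 3′ flank. For the enrichment of separated pairs, Ring1B-/- minus WT was -0.61 and no longer passed. In single pairs it called 2 in Eed-/- against WT, none of them a member, where the fit without it called 3, and 1 pair at 10 kb or more in P2 against A2, where the fit without it called 0. The block changed no other call.

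Leaving out 1 library at a time gave these ranges where a direction or a call changed. D3 minus UD ran from -0.34 to 0.16 (short share), -0.46 to 0.0017 (cluster), -0.40 to 0.033 (5′ flank) and -0.27 to 0.24 (3′ flank). Ring1B-/- minus WT ran from -0.0027 to 0.30 (short share), -0.68 to -0.18 (enrichment) and 0.61 to 0.98 (short-to-long ratio), the last 2 passing without the first Ring1B-/- library. Wild-type Ring1B minus Ring1B-/- ran from -0.18 to 0.075 (cluster) and -1.22 to -0.83 (short-to-long ratio). I53A minus Ring1B-/- ran from -0.20 to 0.10 (short share), -0.33 to 0.026 (5′ flank), -0.30 to 0.10 (3′ flank) and -1.03 to -0.67 (short-to-long ratio). P2 minus A2 ran from -0.64 to 0.29 (short share), -0.76 to 0.19 (5′ flank), -0.73 to 0.28 (3′ flank) and -0.31 to 0.011 (short-to-long ratio). Enrichment ran from -0.28 to 0.017 in D3, -0.38 to 0.12 in Ring1B-/- and 0.91 to 1.25 in P2. Leaving out a library of another group changed a call only through the shared spread and the adjustment. Over separated pairs alone, the enrichment ran from -1.20 to -0.60 for D3 minus UD, -1.13 to -0.93 for Eed-/- minus WT, -1.20 to -0.61 for Ring1B-/- minus WT, 0.32 to 0.91 for wild-type Ring1B minus Ring1B-/- and 0.10 to 0.69 for I53A minus Ring1B-/-, the last 2 passing without the first Ring1B-/- library. Members called ran from 0 to 1 both for Eed-/- against WT and for wild-type Ring1B against Ring1B-/-. Tests on recovered read counts were planned and not run. A lone library is assumed to vary like those of other groups.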
